A study of Mus musculus with 8 samples.

Results

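Brain slices of wild type mice were compared between day 14 after ischemic stroke and sham surgery. The comparison set 1 array of ischemic tissue against 1 array of sham tissue, 2 of the 8 arrays in the series. Probes were kept when they stood well above the scanner's background on at least 1 of these arrays, which left 38352 of 56605 probes, and 1 probe per named gene gave 16973 genes. With 1 array per group there is no replicate and no test. Every difference below is between these arrays only.

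Both groups were wild type mice, and their RNA was taken with QIAzol from the third slice of the brain on the side of the ischemia, or the matching slice after sham surgery. The labels do not give the artery occluded, the age or sex of the mice, or whether RNA of several mice was pooled. The series also holds the same pair from DEREG mice, which carry a diphtheria toxin receptor under Foxp3 control so that regulatory T cells can be depleted; the labels do not say that toxin was given. That pair shares no array with the wild type pair and is given below as a second set of values of the same kind. The remaining 4 arrays hold sorted CD4+ T cells of brain and spleen and were not used.

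After a stroke, dead neurons and myelin are cleared over weeks by microglia and by macrophages that enter from the blood. Astrocytes around the lesion become reactive, fibroblasts lay down matrix, and leukocytes gather in the injured tissue. A slice of bulk tissue mixes all of these cells with surviving neurons, so its RNA profile reflects both which cells are present and what each expresses.

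Signals are the scanner software's processed fluorescence in arbitrary units, and differences are log2, ischemia minus sham, after each array was scaled to its 75th percentile. That percentile was 411.4 for WT sham and 420.2 for WT ischemia, with 62.0% and 65.1% of probes well above background and 0 saturated spots on either array. The neuron markers, which check the tissue label, were all well above background on both arrays. The 8 spike-in probes, RNA added in equal amounts at labelling, read between 0.15 and 0.39 higher on the ischemia array, with a median of 0.30. All arrays shared 1 slide and 1 scan.

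Differences were many and went both ways: 37.2% of the genes compared differed at least 2-fold. In ischemia 3186 genes were at least 2-fold higher, 18.8% of those compared, and 3123 were at least 2-fold lower, 18.4%. The higher genes reached further, since 1659 passed 4-fold (9.77%) against 592 of the lower ones (3.49%). Among the 15377 genes above background on both arrays the median difference was -0.19, the 5th percentile -1.85 and the 95th 2.73. Another 1160 genes were above background only in ischemia and 431 only in sham, so that their differences are lower bounds. When the arrays were scaled on the spike-in probes instead, a choice made after seeing the data, all differences moved by -0.29 and the counts became 2616 higher and 4554 lower, so that 36.5% of the 2-fold differences were higher in place of 50.5%.

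**Figure D1:**
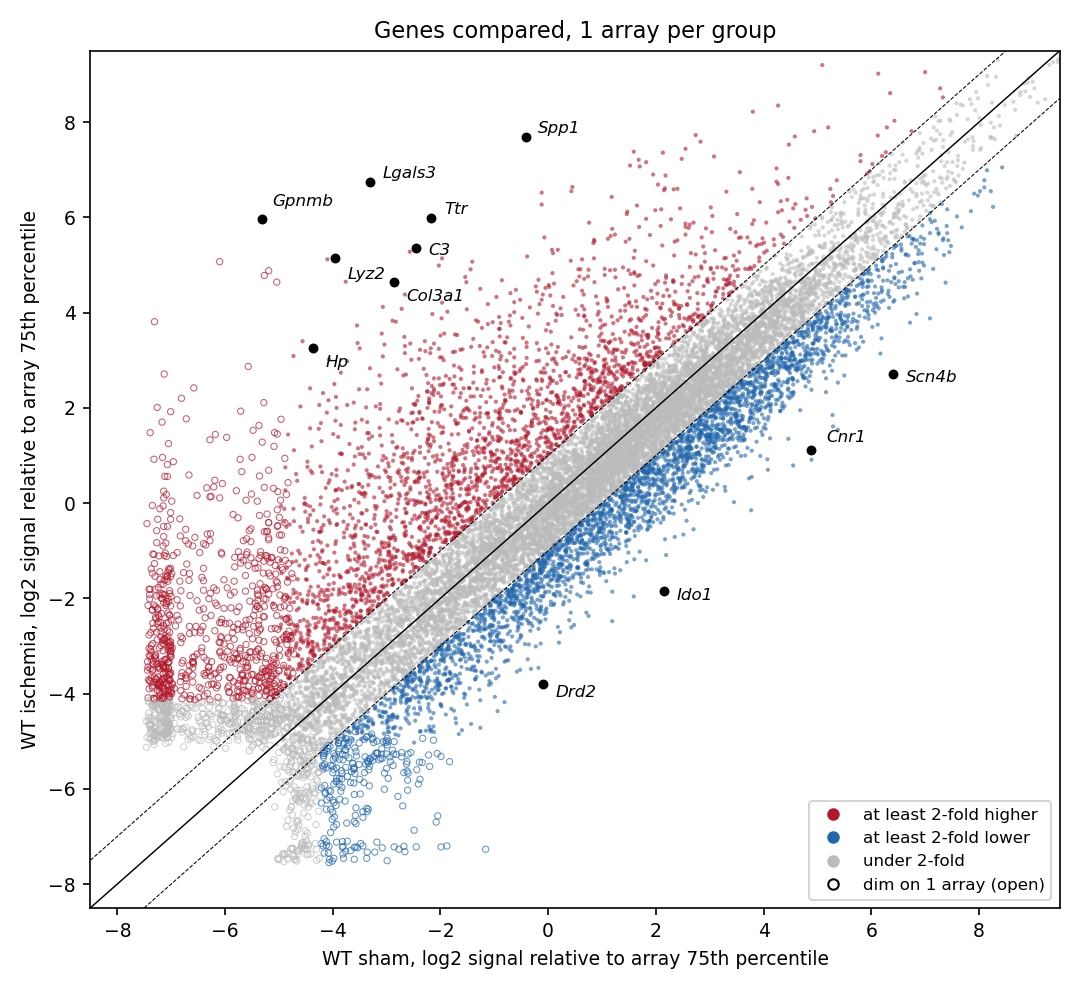
Each point is 1 of the genes compared, with its log2 signal relative to the array's 75th percentile in WT sham (horizontal axis) and in WT ischemia (vertical axis), 1 array each. The solid line marks equal values, dashed lines mark 2-fold, open points were well above background on only 1 array, and black points carry gene names; Lgals3, Gpnmb and Spp1 lie far above the line, while Scn4b and Drd2 lie below it.

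The genes highest above sham included genes known from phagocytes and inflammation. Lgals3 encodes galectin-3, a lectin of activated macrophages and microglia, and its signal was 41.4 in sham and 45181 in ischemia, a difference of 10.06 or 1069.8-fold. Gpnmb, a glycoprotein of lipid-laden phagocytes, was not well above background in sham at 10.4 and read 26342 in ischemia, at least 2189.2-fold higher. Spp1, the secreted phosphoprotein osteopontin, read 307 and 86180, a difference of 8.10. All of these were near the floor or modest in sham and among the bright probes of the ischemia array.

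The inhibitory receptor gene Lilrb4a stood at 24.0 in sham and 14593 in ischemia, 9.22 higher. Lyz2, lysozyme of macrophages and granulocytes, was 9.10 higher, and its close copy Lyz1, which may share hybridisation with it, 7.82 higher. Ms4a7, a membrane protein of border and infiltrating macrophages, read 69.5 and 16313, a difference of 7.84. Ifi204, an interferon-inducible DNA sensor, was 8.41 higher, Ccl2, the main monocyte-attracting chemokine, 7.96, and C3, the central complement component, 7.81. The haptoglobin gene Hp was 7.62 higher and the fibrillar collagen gene Col3a1 7.51 higher. In the DEREG pair the same genes differed by 9.62 for Lgals3, 8.88 for Lilrb4a, 8.25 for Spp1, 8.41 for C3 and 7.37 for Col3a1. Ttr, also among the 12 highest, is treated with the choroid plexus genes below.

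The largest lower bounds were of genes above background only in ischemia. These bounds hold for the processed signal. With normexp background correction of the pixel medians, the log2 differences of these genes were smaller, from 8.49 for Gpnmb to 5.31 for Mmp3. Cd5l, a secreted protein of tissue macrophages, was not well above background in sham and was at least 1171.1-fold higher. Saa3, an acute phase serum amyloid, was at least 1028.4-fold higher, Cst7, the protease inhibitor cystatin F, at least 961-fold, and the apolipoprotein gene Apoc2 at least 818-fold. The imprinted noncoding RNA H19 read 2.59 in sham and 5891 in ischemia, at least 489.6-fold higher. Fcgr4, an activating Fc receptor, was at least 256-fold higher, and Mmp3, the matrix protease stromelysin-1, at least 229-fold. Mmp3 was also not well above background in the DEREG sham array, where the bound was 9.57.

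The genes furthest below sham included genes of striatal neurons. Scn4b, a sodium channel beta subunit, read 35056 in sham and 2770 in ischemia, a difference of -3.69. Drd2, the D2 dopamine receptor, read 386 and 30.1, a difference of -3.71. Cnr1, the cannabinoid receptor CB1, was -3.78 and Rgs4, a regulator of G protein signalling, -3.76. Each of these kept a measurable signal in ischemia, so their differences are not bounds.

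The lowest measured gene was Ido1, an enzyme of tryptophan breakdown, at 1843.6 in sham and 117 in ischemia, a difference of -4.01. Syndig1l was -3.92, Lrrc10b -3.84, the retinoid receptor gene Rxrg -3.68, Sh3rf2 -3.66, the activin-type receptor gene Acvr1c -3.55 and the membrane serine protease gene Tmprss6 -3.46. Among genes measured on both arrays the downward differences were thus smaller than the upward ones, and the largest was 16.1-fold, for Ido1. In the DEREG pair Ido1 differed by -4.91 and Rxrg by -3.66.

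Genes above background only in sham had smaller and dimmer signals. The largest bound, -4.06 for C1qtnf9, rests on 1 spot whose processed signal was 184 while the median of its pixels was 45.5 over a local background of 29.0, and with normexp correction of the pixel medians its difference was -0.18. Olfr651 had 112 in sham and a bound of -3.35. Neither C1qtnf9 nor Olfr651 was well above background on a DEREG array, where the sham signals were 2.73 and 2.75. Pappa2, a protease acting on IGF binding proteins, had a bound of -3.18, Chsy3, a chondroitin synthase, -3.16, Cyp2a5 -3.15, Ankrd63 -3.02, Ankrd34c -2.86 and the cytokine receptor gene Il20ra -2.78. These 6 also had bounds between -3.27 and -2.55 in the DEREG pair. With normexp correction, the wild type differences of Olfr651 and these 6 were smaller too, from -1.44 for Cyp2a5 to -1.0 for Ankrd34c.

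Lists of genes by role describe the wider pattern, each given by its counts at 2-fold and its median, against 18.8% higher, 18.4% lower and a median of -0.14 over all genes compared. A gene known only as a lower bound enters a median at its bound, and its direction was fixed by the array it was bright on.

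Phagocyte genes as a group were higher. Of 23 genes of the disease-associated phagocyte state, a program of microglia that surround debris, 22 were at least 2-fold higher and 0 lower, with a median of 4.85. Trem2, the lipid-sensing receptor at its head, read 2933 in sham and 80747 in ischemia, 4.75 higher, and its signalling adaptor Tyrobp was 5.0 higher. Itgax, the integrin CD11c, read 26.2 and 2372.4, 6.47 higher, and the growth factor gene Igf1 read 100.4 and 13326, 7.02 higher. The only member under 2-fold was Apoe, the lipid carrier of glia, at 0.97 on a probe that already read 133944 in sham. A second, dimmer Apoe probe differed by 2.67.

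In bulk tissue a difference in the number of cells of a type and one in RNA per cell cannot be told apart. The microglia markers are the nearest reference: 9 of 12 were at least 2-fold higher, 0 lower, median 2.65. Cx3cr1, the fractalkine receptor of microglia, read 5682 and 40827, 2.81 higher, and Tmem119 read 1112.3 and 6934.2, 2.61 higher. P2ry12, the ADP receptor of resting microglia, read 232 and 443, 0.90 higher, and Siglech, a lectin of microglia, differed by -0.26 on the probe used and by 0.95 on its second probe, so its direction is not settled. The median of these markers was below that of the phagocyte genes above. Macrophage and monocyte markers had 12 of 13 at least 2-fold higher and a median of 4.24. Their one member below sham, Itgam, the integrin CD11b, was -0.98 on the bright probe used, while its second probe read 14.5 and 111 and was at least 2.91 higher. The Itgam probes thus disagree in direction, and the direction of that gene is not settled here.

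Receptors that take up debris followed. All 6 Fc receptor genes compared were at least 2-fold higher, median 5.32, with Fcer1g, the common gamma chain, at 5.22 and Fcgr2b, the inhibitory receptor, at 5.52. Among scavenger and repair genes 14 of 16 were higher and 0 lower, median 3.49. Only 8 of the 16 were above background on both arrays, and their median was 3.01. Stab1, a scavenger receptor for matrix and lipid ligands, read 465 and 16749, 5.14 higher. Msr1, scavenger receptor A, was at least 4.92 higher and Arg1, the arginase of alternatively activated macrophages, at least 4.44, whereas Mrc1, the mannose receptor, was 2.92 higher and Mertk, a receptor for dying cells, 1.86. Retnla, a further alternative activation marker, was not well above background in ischemia.

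The lysosome list had 26 of 28 genes at least 2-fold higher, 0 lower and a median of 3.13. Ctsd, the aspartic protease cathepsin D, read 14052 and 246973, 4.11 higher, and Ctss, cathepsin S of antigen-presenting cells, 7919.9 and 137003, 4.08 higher. Cd68, a lysosomal glycoprotein of phagocytes, was 5.34 higher and Grn, progranulin, 4.42. Only Neu1, a sialidase, at 0.48 and Ctsf, cathepsin F, at 0.13 stayed under 2-fold. The list thus ran from 0.13 to 5.34, with no member below sham.

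Lipid handling genes were mostly higher. Of 20 compared, 15 were at least 2-fold higher and 1 lower, median 2.78. Apoc1, an apolipoprotein of foam cells, read 553 and 39398, 6.12 higher. Plin2, the coat protein of lipid droplets, was 5.58 higher and Abca1, the cholesterol exporter, 4.17 higher. Pltp, a phospholipid transfer protein, was -0.48.

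Cholesterol synthesis genes went the other way, and 12 of 20 were at least 2-fold lower and 0 higher, median -1.12. Idi1, an isomerase of the isoprenoid steps, read 943 and 255, -1.92. Fdft1, squalene synthase, was -1.83, and Sqle, squalene epoxidase, -1.77. In the DEREG pair the median of the list was -0.90.

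Innate sensing and complement were higher. Of 15 Toll-like receptor genes and partners 12 were at least 2-fold higher and 1 lower, median 2.96; Tlr2, which senses bacterial lipoproteins, read 69.9 and 4281.8, 5.91 higher, and Tlr7, a sensor of single-stranded RNA, was 5.23 higher. Tlr9, the CpG DNA sensor, was -0.18. The 1 lower gene, the TLR4 partner Ly96, was -1.05 on the probe used and at least 3.05 higher on its dimmer second probe, so its direction is also not settled. Complement genes had 16 of 19 at least 2-fold higher and 0 lower, median 4.34. C1qa, a chain of the recognition complex, read 2298.1 and 62884, 4.74 higher, and C3ar1, the C3a receptor, read 26.7 and 1969.8, 6.17 higher. The inhibitors Cd55 and Cd59a, which guard cells against complement, were at -0.24 and 0.56 on the probes used. Their dimmer probes read higher, at least 2.05 and 0.66 for Cd55 and 1.42 for Cd59a, so the direction of Cd55 and the size for Cd59a are not settled.

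Antigen presentation was higher on both arms. MHC class I genes had 13 of 14 at least 2-fold higher and 0 lower, median 3.71, with the class I light chain B2m at 2241.1 and 30684, 3.74 higher. Class II genes, typical of professional antigen-presenting cells, had 9 of 10 higher and 0 lower, median 4.78. H2-Ab1, a class II beta chain, read 171 and 9536.6, 5.77 higher, and Cd74, the invariant chain, 145 and 7042.1, 5.57 higher. Ciita, the class II transactivator, was at least 5.45 higher. The chains of these families are similar in sequence, so that signal may be shared between their probes.

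**Figure D2:**
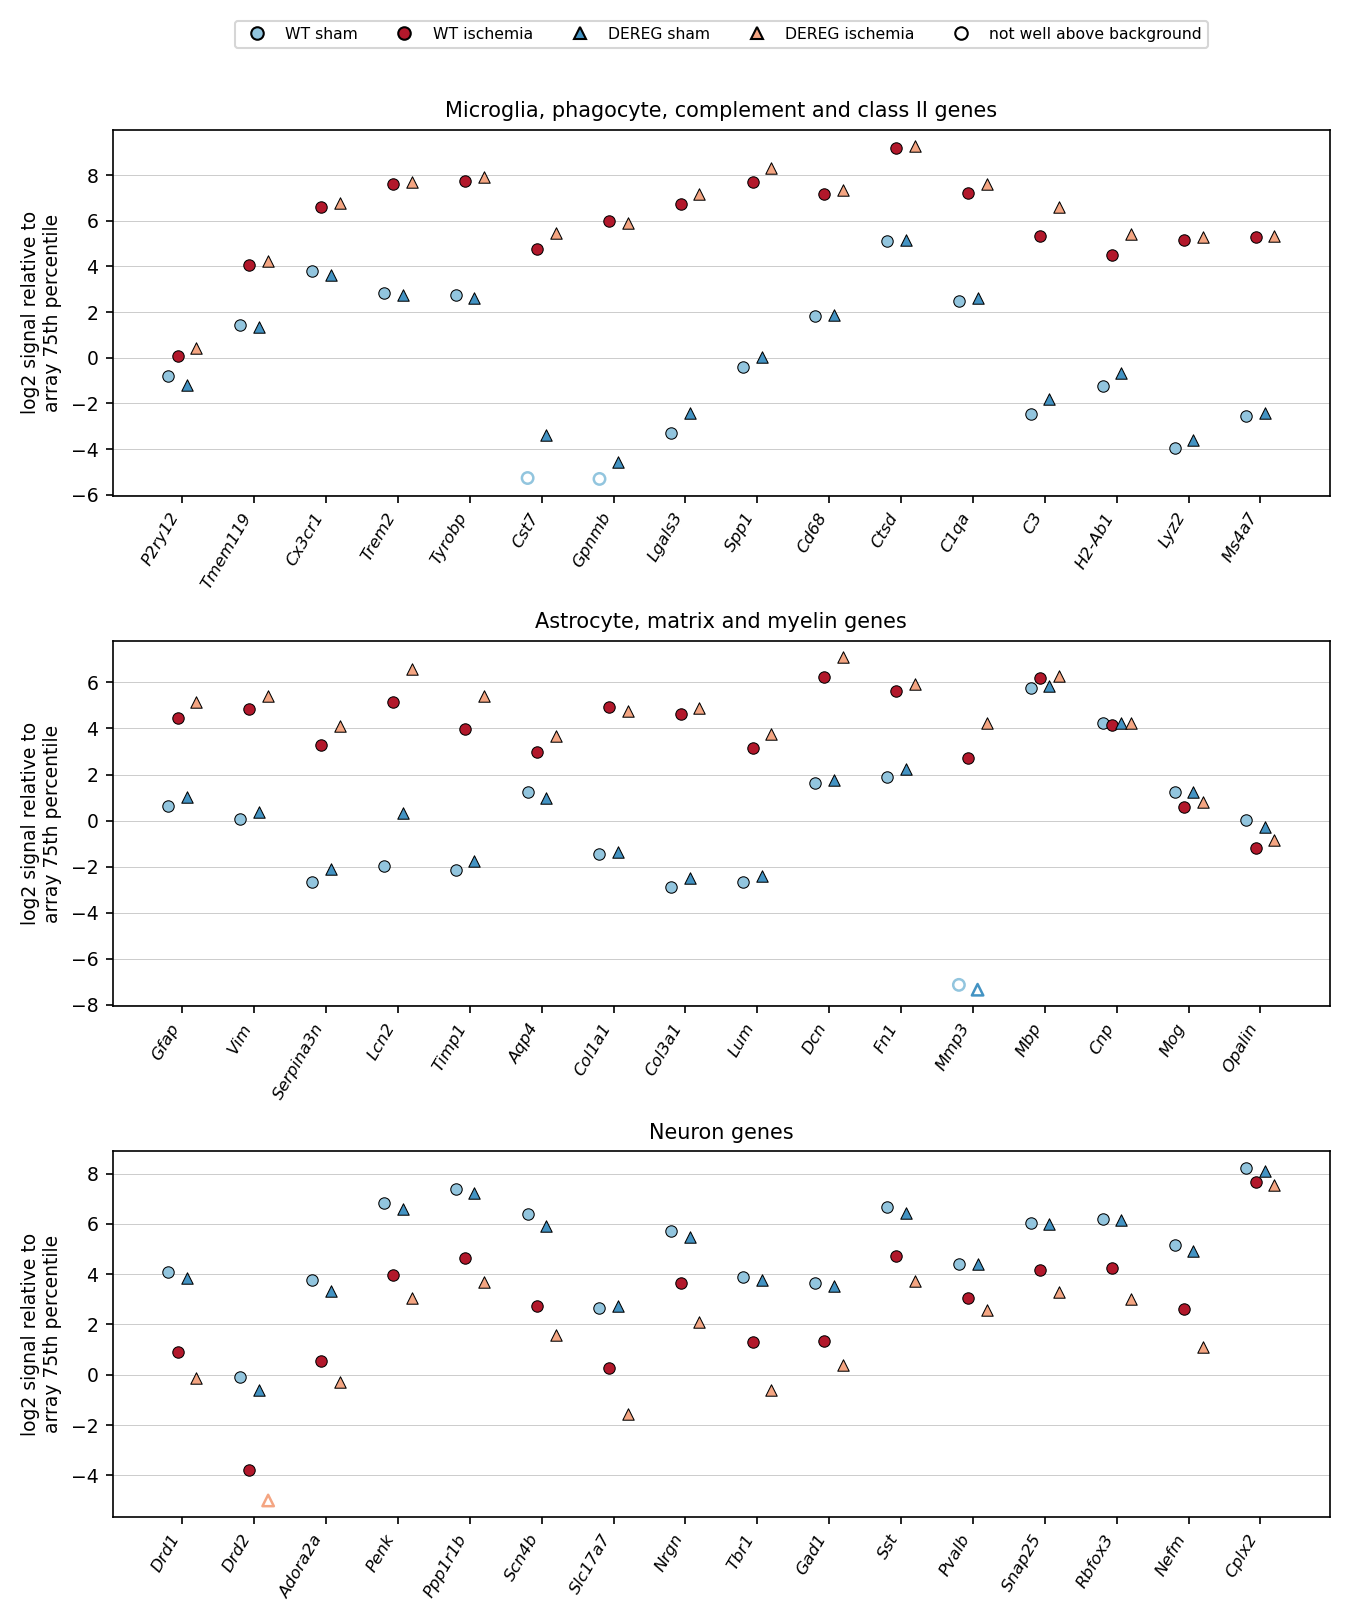
Log2 signal relative to the array's 75th percentile (vertical axis) for single genes on the 4 tissue arrays, circles for WT and triangles for DEREG; open symbols were not well above background. Phagocyte and matrix genes such as Lgals3 and Col3a1 are high on both ischemia arrays, the myelin gene Mog differs little, and neuron genes such as Scn4b are low on both ischemia arrays.

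Interferon response genes were higher without exception, 23 of 23 by at least 2-fold, with differences from 1.98 to 6.64 and a median of 4.62. Ifi27l2a read 378 and 38652, 6.64 higher, and Oas1a, an oligoadenylate synthetase that senses double-stranded RNA, 154 and 14156, 6.49 higher. Irf7, a transcription factor that amplifies the type I response, was 6.19 higher and Isg15, a ubiquitin-like modifier, read 739.6 and 19464, 4.69 higher. The signalling genes were at the lower end, with Irf9 at 2.77 and Stat2 at 1.98. In the DEREG pair the list's median was 5.34.

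Genes of this list are known for the interferon-stimulated response element, here searched on both strands as GAAA, any 2 bases and GAAA again. Promoter sequences (RefSeq, GRCm38.p6, from 250 bases before to 50 after the start) were held for 17 of the 23 genes, and 11 of the 17 contained the motif, against 3.49% of all 27025 promoters and 3.09% of the 13389 promoters of genes compared. Stretches from 6 of them are shown because these genes span the list's functions; matches are in capitals, some are read from the opposite strand as TTTC repeats, and overlapping matches run together.
Ifit1, chr19:34640764-34640853, plus strand: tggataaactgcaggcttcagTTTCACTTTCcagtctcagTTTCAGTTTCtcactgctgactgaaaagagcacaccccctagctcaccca
Ifit3, chr19:34583367-34583456, plus strand: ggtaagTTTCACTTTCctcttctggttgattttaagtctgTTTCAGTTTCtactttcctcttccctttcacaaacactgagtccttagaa
Isg15, chr4:156200835-156200924, minus strand: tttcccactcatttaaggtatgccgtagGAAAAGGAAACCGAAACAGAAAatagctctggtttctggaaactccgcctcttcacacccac
Oas1a, chr5:120907526-120907579, minus strand: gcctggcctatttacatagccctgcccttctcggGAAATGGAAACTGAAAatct
Rsad2, chr12:26456523-26456612, minus strand: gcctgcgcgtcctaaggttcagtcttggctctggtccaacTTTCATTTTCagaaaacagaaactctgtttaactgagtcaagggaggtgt
Gbp2, chr3:142620564-142620653, plus strand: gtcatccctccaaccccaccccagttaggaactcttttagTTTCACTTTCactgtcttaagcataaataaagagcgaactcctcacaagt

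The nearest match began 85 bases before the start in Ifit1, 66 in Isg15, 14 in Oas1a and 59 in Gbp2. Their signals differed by 4.35 for Ifit1, 4.45 for Ifit3, 5.21 for Rsad2 and 4.49 for Gbp2. Genes without a match before the start included Irf7, at 6.19, and Oasl2, at 5.49. Over all genes compared, the motif was in 5.99% of 2469 promoters of genes at least 2-fold higher, in 2.49% of 8530 of genes under 2-fold and in 2.26% of 2387 of genes at least 2-fold lower. Among the 339 promoters of genes at least 16-fold higher the share was 14.5%.

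Other motifs were searched the same way over the genes compared, whose promoters differ in motif content from all promoters. GAGGAAGT, a PU.1 site in 2.96% of promoters of genes compared and 3.28% of all promoters, was in 5.59% of promoters of higher genes, 2.52% of genes under 2-fold and 1.80% of lower genes. TGANTCA, an AP-1 site in 5.69% of promoters of genes compared and 7.93% of all promoters, was in 9.15% for higher genes, 4.74% for genes under 2-fold and 5.53% for lower genes. The cyclic AMP element TGACGTCA, in 2.97% of promoters of genes compared and 1.88% of all promoters, was in 1.5% for higher genes, 3.34% for genes under 2-fold and 3.18% for lower genes. Lower genes thus held it at about the share of the genes compared. The EGR site GCGTGGGCG, in 1.1% of promoters of genes compared and 0.625% of all promoters, was in 1.17% for higher, 1.04% for genes under 2-fold and 1.21% for lower genes, close to each other. Among the 339 promoters of genes at least 16-fold higher, the PU.1 site was in 10.6% and the AP-1 site in 13%. The cyclic AMP element and the EGR site were each in 0.885% of them. The higher share in this set was thus not particular to the interferon-stimulated response element. All these values are shares of letters in a window and not evidence of binding.

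Chemokine genes had the highest median of the lists, 5.43, with 17 of 22 at least 2-fold higher and 1 lower, although with normexp background correction their median of 3.58 lay below that of the Fc receptor genes, 4.71. Ccl5, which attracts T cells and monocytes, read 49 and 7284.1, 7.18 higher. Cxcl10, an interferon-induced ligand of CXCR3, read 35.4 and 4323, 6.90 higher, and Cxcl1, a neutrophil attractant, was at least 6.57 higher. The 1 lower gene was Cx3cl1, fractalkine of neurons, which read 43340 and 12642, -1.81. Cxcl12 was 0.94 higher on the probe used and 3.78 on its second probe. Chemokine receptor genes had 8 of 11 higher and 1 lower, median 2.81, or 1.39 over the 7 above background on both arrays. Cx3cr1 is named above and Ccr6 was -1.42.

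Cytokines and their receptors had 23 of 25 at least 2-fold higher and 0 lower, median 3.69. Il1b, the interleukin-1 beta gene, was at least 5.24 higher and its antagonist Il1rn at least 4.78. Tnfrsf1b, a TNF receptor of leukocytes, read 19.3 and 1247.3, 5.99 higher, and Tgfb1 read 89.2 and 1796.8, 4.30 higher. A dimmer Tgfb1 probe read 25.8 and 113, 2.09 higher. The alarmins Il33 at 0.53 and Il18 at 0.06 were under 2-fold. Inflammasome and cell death genes had 16 of 17 higher and 0 lower, median 3.23, with the nucleic acid sensor Zbp1 at least 7.23 higher and Casp1, the caspase that matures interleukin-1 beta, at 3.42. Leukocyte adhesion genes had 12 of 14 higher and 0 lower, median 3.37, or 2.05 over the 10 above background on both arrays. Cd44, the hyaluronan receptor, read 18.6 and 712, 5.23 higher.

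Lymphocyte markers gave a less uniform picture. Of 13 T cell markers 6 were at least 2-fold higher and 1 lower. Their median of 0.90 is the lower bound of Cd8a, and it was 3.06 when dim probes were taken at their own signal with no filter. The chain Cd3d of the T cell receptor complex read 16.8 and 201, 3.55 higher, while Cd3e read 308 and 412, 0.39 higher, on the probe used and 8.22 and 33.4, at least 1.47 higher, on its dimmer probe. Cd4 was -1.55, and its second probe gave -1.95. Cd8a and Cd3g were not well above background in sham and were at least 0.90 and 1.70 higher. In the DEREG pair the T cell list had a median of 3.91, with Cd3d at 5.13 and Cd8a at least 4.0. The difference between the pairs was not tested.

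Of the markers of regulatory T cells, Foxp3 and Ctla4 were not well above background on either wild type array, nor were Ccr8 and Areg. The 6 others had 4 at least 2-fold higher and 1 lower, median 1.62. Natural killer and cytotoxic markers had 5 of 7 higher and 1 lower, median 2.88, of which Gzma, granzyme A, was at least 5.01 higher and Nkg7 at least 4.49. Only 2 of the 7 were above background on both arrays, and their median was -0.22. The 1 lower member, Klrb1c, was -1.38 on the probe used and at least 1.02 higher on its dimmer probe, so its direction is not settled. B cell markers had 2 of 4 higher, median 0.98, or 2.48 over those above background on both arrays, and plasma cell markers 4 of 6, median 2.90, with the immunoglobulin joining chain Jchain at 23.5 and 523, 4.45 higher. Neutrophil markers had 5 of 7 higher, median 3.32, or 1.52 over the 5 above background on both arrays. The calprotectin subunits S100a8 and S100a9 were 6.30 and 5.89 higher, and Camp was -0.51. Dendritic cell markers had 4 of 8 higher, median 1.82, with Flt3 and Zbtb46 at -0.17 and -0.08, and mast cell markers 4 of 5, median 2.50, or 0.09 over the 2 above background on both arrays. Erythroid markers had 3 of 4 higher, median 2.53, with the globin gene Hba-a1 at 1687.9 and 10588, 2.62 higher.

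Reactive astrocyte genes were higher in every class. All 13 pan-reactive genes were at least 2-fold higher, median 4.04. Gfap, the intermediate filament that defines reactive astrocytes, read 635 and 9225.4, 3.83 higher, and Vim, vimentin, 435 and 11971, 4.75 higher. Serpina3n, a protease inhibitor, was 5.96 higher and Lcn2, lipocalin 2, read 105 and 14824, 7.11 higher. The A1 list had 10 of 11 higher and 0 lower, median 3.78, and the A2 list 10 of 12 higher and 0 lower, median 2.48. Only 6 of the A2 genes were above background on both arrays, and their median was 2.22. The A1 list shares the class I genes H2-D1 and H2-T23, Psmb8, Serping1 and Gbp2 with the lists above, and the A2 list holds Cd14, also a macrophage marker. The pan-reactive list shares Cxcl10, Cd44 and Osmr with the chemokine, leukocyte adhesion and cytokine lists. General astrocyte markers had a median of only 0.40, with 3 of 13 at least 2-fold higher. Aqp4, the water channel of astrocyte endfeet, was 1.74 higher, Slc1a3 0.72, S100b -0.01 and Aldoc -0.66. Signal for S100b and Aldoc thus did not follow that for Gfap.

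Iron and metal handling differed by gene. Of 15 iron and heme genes 10 were at least 2-fold higher and 1 lower, median 1.90; Hmox1, heme oxygenase 1, read 175 and 5373.2, 4.91 higher, Slc11a1, an iron transporter of phagosomes, was 5.27 higher, and Tfrc, the transferrin receptor, -1.11. Metallothionein and zinc genes had a median of -0.05, which turned to 0.04 under other scaling, with 2 of 8 higher and 1 lower. Slc30a3, the zinc transporter of synaptic vesicles, was the lower one at -2.51, and Mt2 the highest at 1.60 on the probes used. Mt1 was 0.65 higher on the probe used and 2.20 higher on its dimmer probe.

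Matrix genes were higher in ischemia. Collagen genes had 18 of 23 at least 2-fold higher and 1 lower, median 2.56. Col1a1, a chain of type I collagen, read 152 and 12598, 6.35 higher, and Col1a2 1178.7 and 57444, 5.58 higher. The basement membrane chains Col4a1 and Col4a2 were 2.21 and 1.95 higher, and Col19a1 was the 1 lower gene at -1.54. The chains did not divide by type: the fibrillar genes Col5a1 and Col11a1 were at 1.23 and 0.24, and the basement membrane gene Col18a1 was 5.11 higher. Meningeal and perivascular fibroblast markers had 10 of 11 higher, median 3.98, of which several are the collagens just named. Pericyte and smooth muscle markers had 4 of 11 higher, median 0.87.

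Matricellular and scar proteins had 23 of 25 genes at least 2-fold higher and 0 lower, median 3.68. Lum, lumican, read 65 and 3741.9, 5.82 higher, Fn1, fibronectin, was 3.74 higher and Postn, periostin, 3.68. Tnc, tenascin C, had only a lower bound of 0.65, so whether it passed 2-fold is not settled. Matrix proteases and inhibitors had 16 of 20 higher and 1 lower, median 2.86. Mmp2, gelatinase A, read 28.9 and 858, 4.86 higher, Timp1, an inhibitor of these proteases, 92.5 and 6582.2, 6.12 higher, and Mmp17 was the lower gene at -2.21. Proteoglycans of the neural matrix did not share this: 4 of 16 were at least 2-fold higher and 1 lower, median -0.12. Neurocan, Ncan, was -0.79 and brevican, Bcan, -0.56, while Sdc1, a syndecan of plasma and epithelial cells, was 4.05.

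Coagulation and plasminogen genes had 16 of 17 at least 2-fold higher and 0 lower, median 3.08. Plaur, the urokinase receptor, read 47.4 and 1771.2, 5.19 higher, and F13a1, the transglutaminase that crosslinks fibrin and a macrophage marker, was 4.24 higher. Vessel growth genes had 6 of 19 higher and 0 lower, median 0.63, with Angptl4 at 3.83. Vegfa, the main endothelial growth factor, was -0.60 on the probe used and -0.56, 0.25 and 0.36 on its other probes, so its direction is not settled. Endothelial markers had 3 of 12 higher and 0 lower, median 0.55. Cldn5, the tight junction claudin of brain endothelium, read 5132.5 and 7633.8, 0.54 higher, and Vwf, von Willebrand factor, 1904.1 and 9393.2, 2.27 higher.

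Growth and repair factors were divided. IGF genes had 7 of 10 at least 2-fold higher and 0 lower, median 2.03; Igf1 is named above and Igfbp2, a binding protein, was 2.55 higher. TGF-beta and BMP genes had 10 of 18 higher and 1 lower, median 1.53, with Tgfbi, a TGF-beta induced matrix protein, 5.17 higher and the activin subunit Inhba -1.90. Neurotrophin and repair factor genes had 6 higher and 5 lower of 20, and their median of -0.00 went from -0.30 to 0.18 with the scaling. Cntf, a cytokine of glia, was 2.48 higher, whereas Bdnf read 323 and 134, -1.30, Ntf3 -2.44 and the receptor Ntrk3 -1.98. Regeneration-associated genes had 7 higher and 5 lower of 18, median -0.15. Atf3, a stress-induced transcription factor, read 47.2 and 1659.5, 5.10 higher, and the growth cone protein gene Gap43 read 9007 and 2517.2, -1.87. Axon guidance genes had 1 higher and 11 lower of 24, median -0.95; the higher one was Sema4d at 2.77 and the lowest Sema3e at -2.85.

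All 20 cell cycle genes were at least 2-fold higher, median 2.80. Of these, 12 were above background on both arrays, and their median was 2.59. Mki67, the Ki-67 antigen of dividing cells, read 34.1 and 1234.2, 5.15 higher. Top2a, the topoisomerase of dividing cells, was at least 5.44 higher, and Mcm5, a replication helicase subunit, was lowest at 1.18. The tissue does not show which cells carried this signal.

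**Figure D3:**
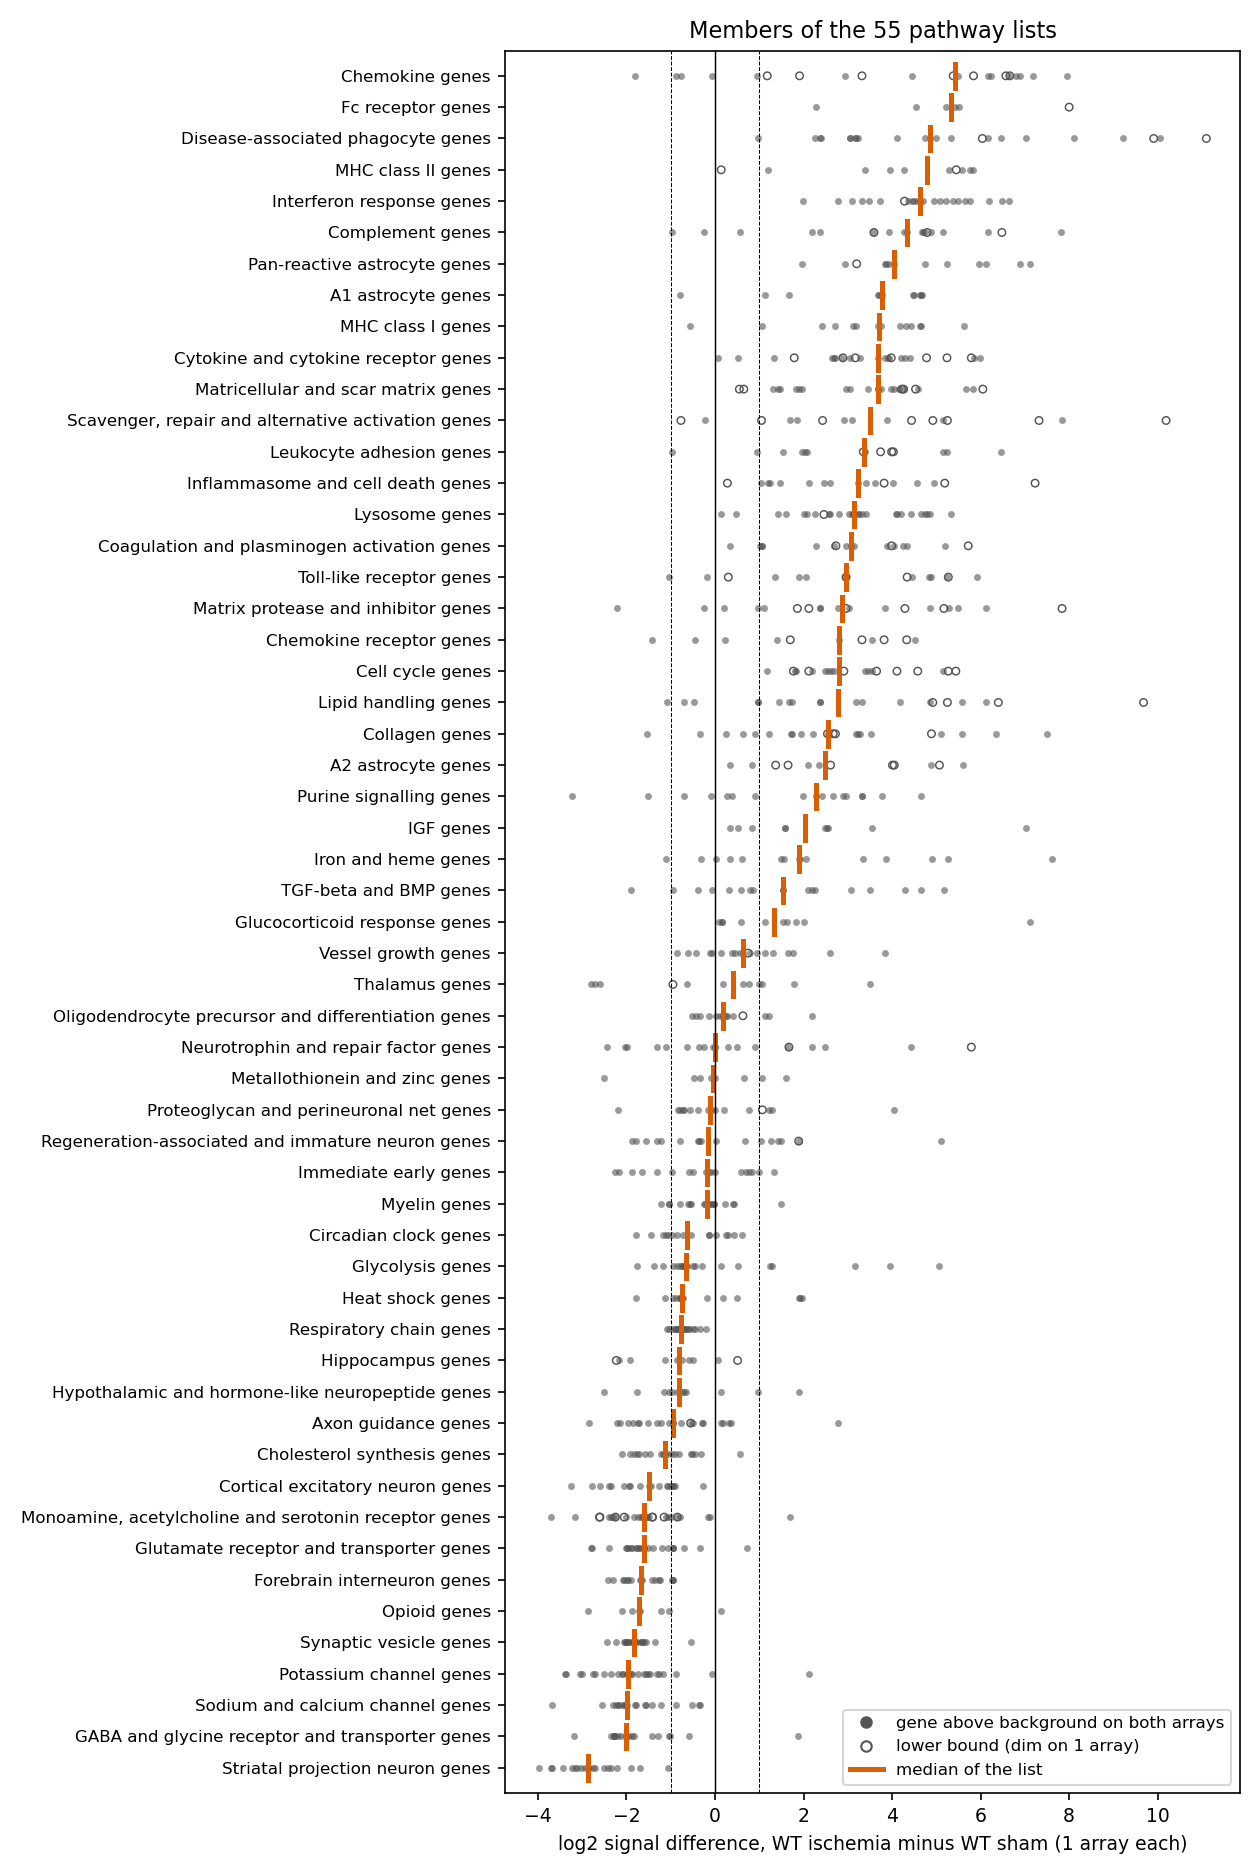
Log2 difference, WT ischemia minus WT sham (horizontal axis), for every compared member of the 55 pathway lists (rows, ordered by median); filled points were above background on both arrays, open points are lower bounds, the orange bar is the median, and dashed lines mark 2-fold. Chemokine genes have the highest median, 5.43 (not with normexp correction), and striatal projection neuron genes the lowest, -2.86.

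Neuron markers were lower. All 12 general neuron markers were at least 2-fold lower, with differences from -2.54 to -1.30 and a median of -1.80. Rbfox3, the nuclear protein NeuN, read 29825 and 7898.2, -1.95, and Nefm, a neurofilament subunit, 14667 and 2581.3, -2.54. Synaptic vesicle genes had 21 of 22 at least 2-fold lower and 0 higher, median -1.84, with Snap25, a SNARE protein of release, at -1.86 and Syp, synaptophysin, at -1.76. The exception was Cplx2, a complexin, at -0.54 on a very bright probe that read 122511 in sham.

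Striatal projection neuron genes were furthest below, with 20 of 20 at least 2-fold lower and a median of -2.86. Drd1, the D1 receptor of the direct pathway, read 6930.2 and 792, -3.16. Adora2a, the adenosine receptor of the indirect pathway, read 5647 and 614, -3.23. The neuropeptide precursors were also lower, with Penk, proenkephalin of the indirect pathway, at -2.87, Tac1, the substance P precursor of the direct pathway, at -3.11 and Pdyn, prodynorphin, at -1.70. Ppp1r1b, the dopamine-regulated phosphatase inhibitor DARPP-32, read 68610 and 10428, -2.75. Genes of both output pathways thus lay in one range, and the smallest difference was that of Foxp2, -1.06, which the cortical list also holds.

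Cortical excitatory neuron genes had 15 of 19 at least 2-fold lower and 0 higher, median -1.5. Slc17a7, the vesicular glutamate transporter VGLUT1, read 2584.8 and 503, -2.39, and Tbr1, a deep-layer transcription factor, 6032.1 and 1024.4, -2.59. The upper-layer gene Cux2 was -0.94 and Etv1, of layer 5, -0.91. In the DEREG pair the list's median was -2.92 and Slc17a7 was -4.29, while the striatal median was -3.59.

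Forebrain interneuron genes had 14 of 17 at least 2-fold lower and 0 higher, median -1.68. Gad1, which makes GABA, read 5180.1 and 1063.4, -2.31, and Sst, somatostatin, 42249 and 11081, -1.96. Pvalb, parvalbumin of fast-spiking cells, was -1.36 and Vip -1.27. Hippocampus genes had 0 higher and 4 lower of 10, median -0.81, and thalamus genes 3 higher and 3 lower of 12, median 0.40. In the thalamus list Slc17a6, the transporter VGLUT2, was -2.81, whereas Prkcd, a protein kinase C, was 3.51. Hypothalamic and hormone-like peptide genes had 1 higher and 4 lower of 12, median -0.81, the higher one being Gal, galanin, at 1.90. Opioid genes had 7 of 8 lower, median -1.71, and Pomc, the beta-endorphin precursor, was 0.14.

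Receptors and channels of neurons were lower by similar amounts. Glutamate receptor and transporter genes had 19 of 25 at least 2-fold lower and 0 higher, median -1.61. Grin1, the obligatory NMDA receptor subunit, read 5514.1 and 1416.3, -1.99, and Slc1a2 and Slc1a3, the astrocyte glutamate transporters, were -0.35 and 0.72. GABA and glycine genes had 17 of 19 lower and 1 higher, median -2.01; Gabrb2, a GABA-A receptor subunit, was -2.35, and the higher gene was Slc6a13, a transporter of meninges, at 1.87. Potassium channel genes had 24 of 27 lower and 1 higher, median -1.96. The higher one was Kcnj13, a choroid plexus channel, at 2.12, and Kcnj10, the astrocyte channel Kir4.1, was -0.06. Slc1a3, Slc6a13 and Kcnj13 were the only members of these 3 lists above sham.

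Sodium and calcium channel genes had 17 of 21 lower and 0 higher, median -1.99, with Scn2a, a sodium channel of excitatory axons, at -2.23. Monoamine, acetylcholine and serotonin receptor genes had 23 of 30 lower and 1 higher, median -1.60. Htr2c, a serotonin receptor, read 1468.6 and 285, -2.39. Purine signalling genes went the other way, with 10 of 17 higher and 2 lower, median 2.28. P2ry6, a UDP receptor of phagocytes, was 4.66 higher and P2rx7, an ATP-gated channel of immune cells, 2.66, while the neuronal receptors Adora1 and Adora2a were -1.52 and -3.23. Immediate early genes had 1 higher and 5 lower of 18, median -0.17; Npas4, induced by activity in neurons, was -2.17 and Fos 0.70.

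Myelin genes stood near sham, with 1 higher and 3 lower of 18 and a median of -0.19. Cnp, a phosphodiesterase of myelin, read 7690.1 and 7386.8, -0.09. Mog, a surface glycoprotein of mature myelin, was -0.61, Opalin -1.22, and the lipid enzymes Ugt8a and Fa2h -1.04 and -1.05, with -0.45 on a second Ugt8a probe. Mbp, myelin basic protein, was 0.40 on the probe used and -0.74 on another, so its direction is not settled. The higher gene was Trf, transferrin, at 1.5. Oligodendrocyte markers had 0 higher and 2 lower of 10, median -0.20.

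Precursor and differentiation genes of the lineage had 3 higher and 0 lower of 16, and a median of 0.18 that became -0.11 with spike-in scaling. Pdgfra and Cspg4, which also mark fibroblasts and pericytes, were 1.14 and 1.22 higher, and Bmp4 2.19, whereas Olig2 and Sox10, transcription factors of the lineage, were -0.14 and 0.02. Oligodendrocyte precursor markers had 2 of 7 higher and 0 lower, median -0.14. The medians of these 4 myelin and lineage lists thus lay between -0.20 and 0.18.

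Metabolic genes were mostly lower by under 2-fold. Respiratory chain genes had 0 higher and 2 lower of 22, but every member was below sham, from -1.09 for Ndufs1 to -0.20 for Sdhc, with a median of -0.77. Glycolysis genes had 5 higher and 3 lower of 22, median -0.65. Eno2, the enolase of neurons, was -1.77, whereas Hk3, a hexokinase of leukocytes, read 272 and 9369.2, 5.07 higher, and Slc16a3, a lactate exporter, was 3.16 higher. Heat shock genes had 3 higher and 2 lower of 15, median -0.74; Hsph1 was -1.78, and Hspb1, a small heat shock protein of reactive astrocytes, was 1.96. Circadian clock genes had 0 higher and 5 lower of 16, median -0.63. Glucocorticoid response genes had 6 of 10 higher and 0 lower, median 1.33, with Sgk1, a stress-responsive kinase, at 1.82. The lists close to the threshold depend on the scaling: on spike-in scaling 13 of the respiratory chain genes, 8 of the glycolysis genes, 9 of the heat shock genes, 8 of the clock genes, 7 of the hypothalamic genes and 5 of the proteoglycan genes were at least 2-fold lower.

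Choroid plexus genes were higher in wild type ischemia but had other values in the DEREG pair. Of 12 such markers 11 were at least 2-fold higher, median 2.49, while in the DEREG pair 2 of 11 were higher and 2 lower, median 0.53. Ttr, transthyretin, the main secreted protein of choroid plexus, read 91.7 in WT sham, 26647 in WT ischemia, 359.9 in DEREG sham and 491 in DEREG ischemia. The WT ischemia array alone was high for Ttr, with a difference of 8.15 in the wild type pair and 0.53 in the DEREG pair. Folr1, the folate receptor of that epithelium, was 6.01 and 1.87 higher in these pairs, and Otx2, its transcription factor, at least 4.72 and 0.95. Aqp1, a water channel also found elsewhere, was high on both ischemia arrays, at least 4.09 and at least 5.74. Ependymal markers did not separate the pairs in this way: 7 of 10 were higher, median 1.85 in the wild type pair and 1.59 in the DEREG pair. The difference between the pairs, and the part of choroid plexus tissue in it, was not tested.

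**Figure D4:**
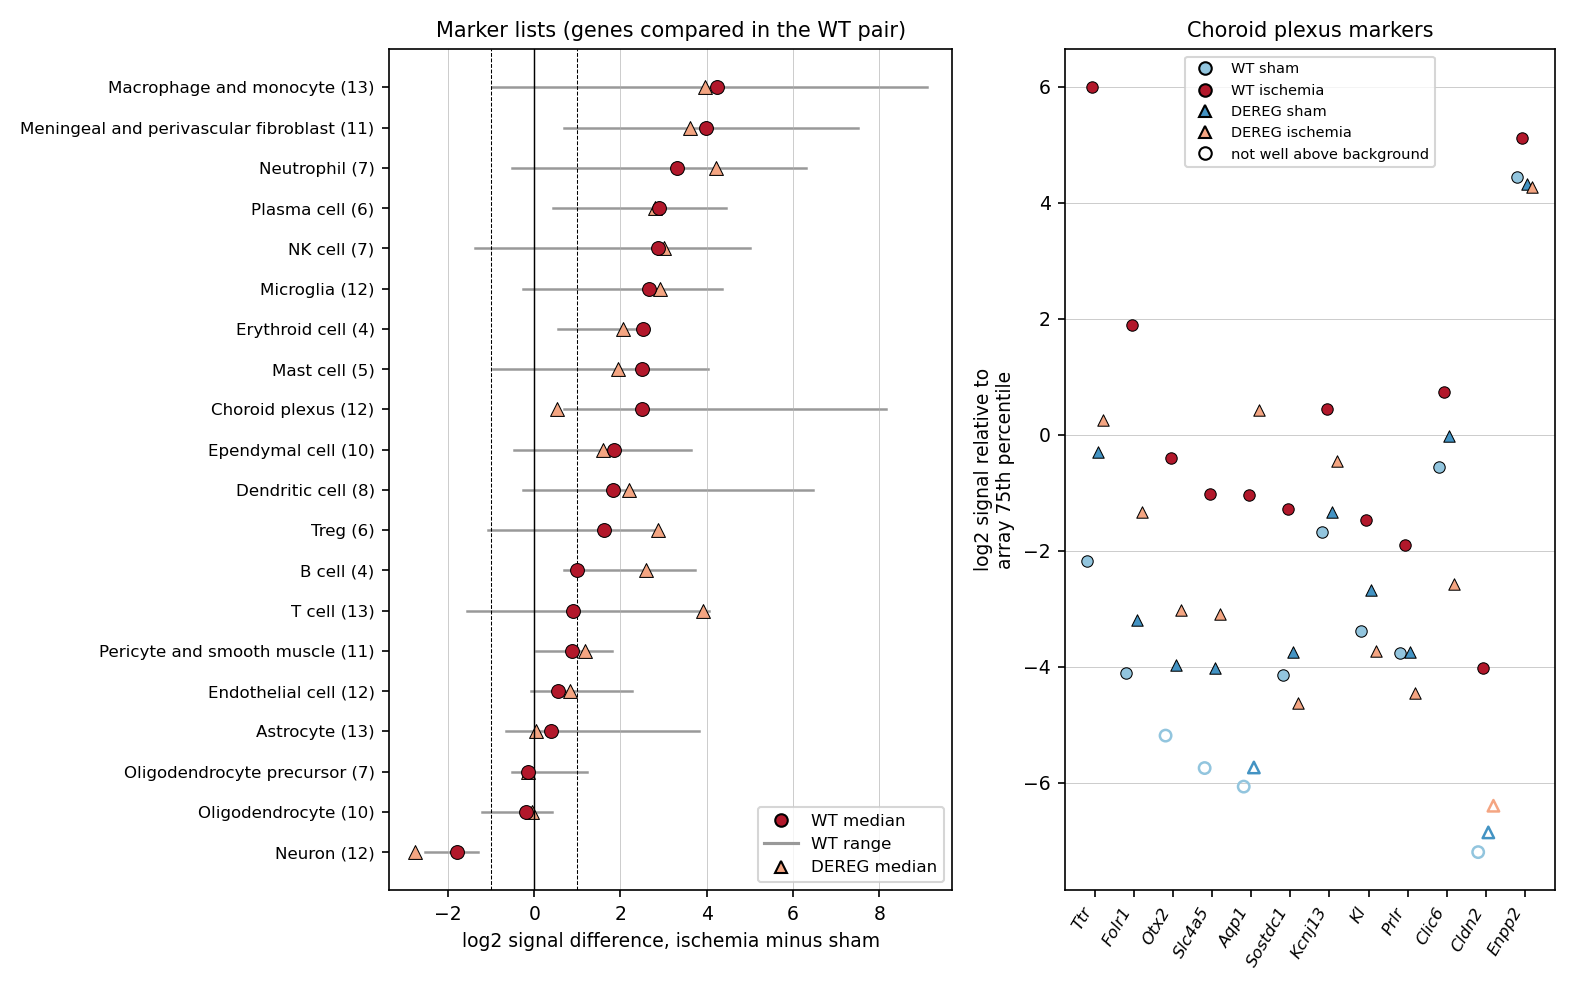
Left, for each of the 20 marker lists, the median (circle) and range (line) of log2 ischemia minus sham in the WT pair and the median in the DEREG pair (triangle); the number of genes compared is in brackets and dashed lines mark 2-fold. Right, log2 signal of the choroid plexus markers on the 4 arrays, open where not well above background; Ttr is high on the WT ischemia array alone.

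Across the transcriptome the DEREG pair ran the same way. There 22.4% of the genes were higher by 2-fold or more and 22.1% lower. Of 15120 genes above background on all 4 arrays, 2449 were at least 2-fold higher in the wild type pair, and 2325 of these were at least 2-fold higher in the DEREG pair too. Of the 2785 lower genes 2656 were at least 2-fold lower in both. The wild type differences were the smaller ones: the median over the higher genes was 2.02 in wild type and 2.32 in DEREG, and over the lower genes -1.5 and -2.09. These genes were chosen on the wild type difference. Pearson's r between the differences was 0.97 and Spearman's rho 0.96 across genes, which are not replicates and which share the slide. Only 5 genes went at least 2-fold in opposite directions, all higher in wild type: Cox8b, Kl, Clic6, Asb5 and the unnamed locus 6720483E21Rik.

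**Figure D5:**
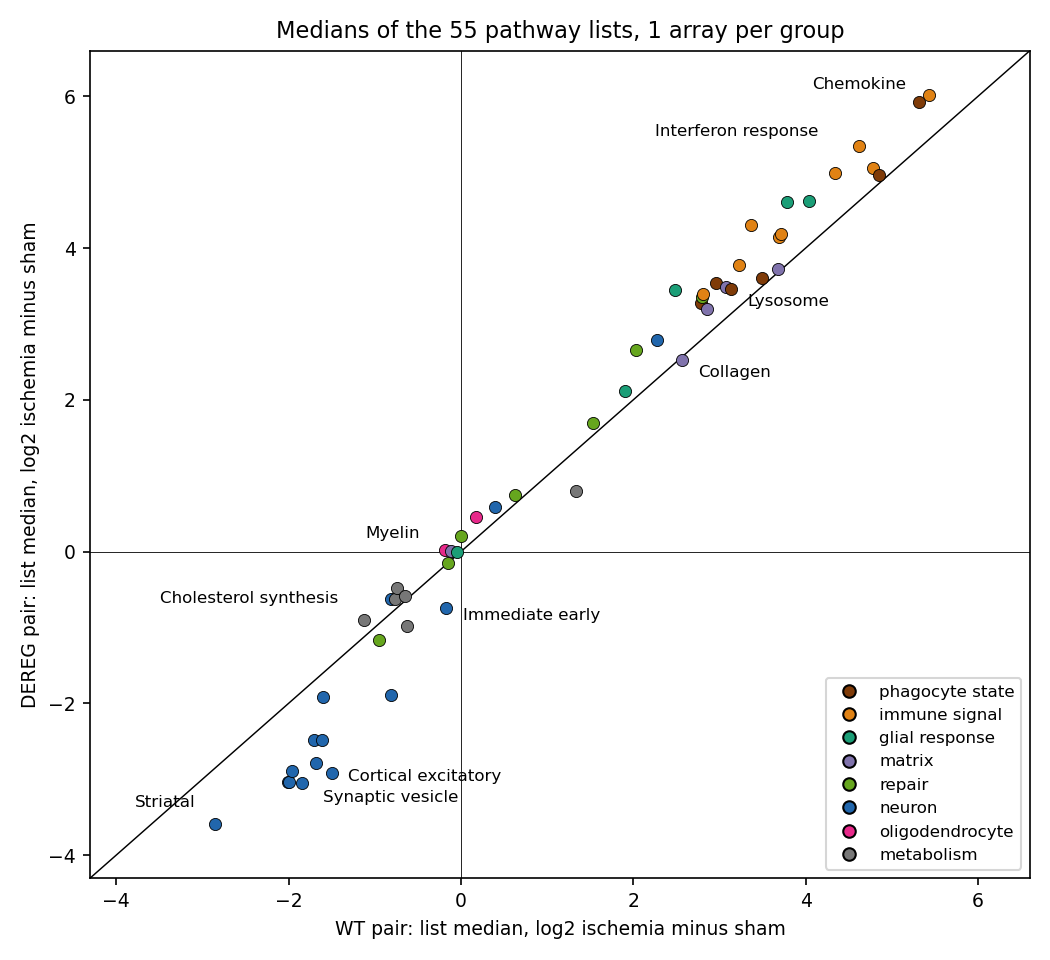
Median log2 difference, ischemia minus sham, of each of the 55 pathway lists in the WT pair (horizontal axis) and in the DEREG pair (vertical axis), 1 array per group, coloured by role; the diagonal marks equal values. Most neuron lists lie below the diagonal, such as cortical excitatory neuron genes at -1.5 and -2.92. The thalamus, hypothalamic and purine signalling lists, coloured with them, lie above it. Each median is over the genes compared in that pair, which for the hypothalamic list were 12 in WT and 15 in DEREG. Immune lists lie mostly above it, such as interferon response genes at 4.62 and 5.34.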

How the data were processed

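Total RNA was labelled with Cy3 and hybridised to 1-colour Agilent arrays, and the submitters' processing notes name Agilent Feature Extraction 10.7.1.1 for the spot readings. The deposited scanner files hold each spot's intensity; the processed intensity is background-subtracted, per the file headers. The series' deposited value table holds a normalized signal, a linear ratio to a fixed value per array, and was an alternative; 4 of its sample columns were not used.

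Control spots were left out, and so were flagged spots where the probe had other, unflagged spots. A probe whose spots were all flagged was kept. Spots of 1 probe were averaged, and log2 values were scaled to each array's 75th percentile. Probes were named through their RefSeq accessions: 32994 of 56605 matched 1 symbol and 23611 stayed unnamed. A gene was represented by its brightest probe over the 4 tissue arrays. For the named genes and list members only, 378 further probes were above background on both wild type arrays. Of these, 36 differed by over 2-fold from the probe used. A difference with 1 side not well above background is a bound, set by the dim probe's own signal or, where that is lower, by the lowest signal well above background on that array (11.8 in sham, 11.2 in ischemia).

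No test was possible with 1 array per group. Named genes are the 12 highest and 12 lowest measured differences, the 8 largest bounds each way (unnamed loci left out), genes of 55 pathway and 20 marker lists, and up to 5 genes opposite in the DEREG pair; some genes that this rule names are not reported here. The members and lists were chosen with earlier results of these data known. The array headers name another build than the GRCm38.p6 tables, which gave gene names and promoter sequences; printed coordinates are those of the promoter table. Alternatives covered background correction (normexp in limma 3.58.1, R 4.3.3, offset 50, on the median spot intensity, as the files hold no mean), scaling, quantile normalization, filters and probe choice. Python 3.11.15 with pandas 2.3.3 was used. The counting steps were tested on simulated data that held only noise between spots, so this test does not cover variation between arrays or animals.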

Additional observations from a re-analysis of the deposited data

Results flagged for a closer look

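4 named genes were at least 2-fold higher in wild type ischemia and at least 2-fold lower in DEREG ischemia, each against its own sham array; the difference between the pairs was not tested. Cox8b, a cytochrome oxidase subunit of heart and muscle, differed by 2.33 and -1.39. Kl, the klotho gene, differed by 1.92 and -1.05, and Clic6, a chloride channel protein, by 1.29 and -2.57; both are on the choroid plexus list. Asb5 differed by 1.18 and -1.06, and in the wild type pair by 0.45 with normexp background correction, 0.95 with quantile normalization and 0.89 with spike-in scaling.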

How the results depend on the processing

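No paired analysis was possible because each group has 1 array. The counts of 3186 higher and 3123 lower genes became 6019 and 6411 when every probe was counted, named or not, which follows from counting more features. Over the other settings they stayed within 1.5 times: 2292 and 2193 with normexp, 2847 and 3873 with scaling to the array median (a shift of -0.16), 2473 and 2904 for genes above background on both arrays, 3943 and 3567 with no filter, 3189 and 3115 in the deposited table, and 2616 and 4554 with spike-in scaling, chosen after seeing the data. One list median changed sign after standing past 2-fold: natural killer markers, 2.88, became -0.22 over genes above background on both arrays, since that setting leaves out the bounds. With normexp the medians of the cortical (-0.99), monoamine (-0.84), cholesterol synthesis (-0.91), dendritic cell (0.57), mast cell (0.93) and regulatory T cell (0.63) lists came under 2-fold, and the cause was not tested. Over genes above background on both arrays the mast cell and regulatory T cell medians came to 0.09 and 0.65, and with no filter the latter was 0.98. Other medians passed 2-fold: T cell markers at 3.06 and B cell markers at 1.24 with no filter, B cell markers at 2.48 over genes above background on both arrays, 1.45 with the median over probes and 1.07 with the percentile of probes above background, and axon guidance genes at -1.11 with median scaling. With spike-in scaling the medians of axon guidance (-1.24), hippocampus (-1.1), hypothalamic neuropeptide (-1.1), respiratory chain (-1.06) and heat shock genes (-1.03) passed it too. With 1 array per group the spread between animals is unknown, and signals under about 11.8 have no order.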
